A study of Sus scrofa with 3 samples.

Results

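miR-122 is a liver microRNA, a small RNA that pairs with messenger RNAs and lowers their output. It is made mainly by hepatocytes, the parenchymal cells of the liver. Its members were chosen by name. They were the rows of named hairpins whose hairpin, without species prefix and copy number, is miR-122. They made up 12 of 3456 such rows, 1 of 677 hairpin names and, as its 5p arm and its 3p arm, 2 of 985 mature miRNA names. Small RNA had been sequenced from livers of Jinhua pigs, all male, of a breed from China. The stages were embryonic day 90 (E90), postnatal day 30 (P30d) and postnatal year 7 (P7y). For each of the 3 stages the labels name 3 pigs and give 1 library, and whether RNA of the pigs was pooled is not said. No stage has a replicate, so every value below describes 1 library, and no p-value or standard deviation is given. All intervals are 95% intervals for counting error only, and copies made by PCR are not independent molecules.

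The miR-122 hairpin is cut into a duplex of a 5p and a 3p strand. The 5p strand is the one mostly loaded into Argonaute, the protein through which miRNAs act, while the 3p strand is mostly degraded. In the livers of humans and mice miR-122 is among the most abundant miRNAs, it acts on genes of lipid and cholesterol metabolism, and it is a host factor of hepatitis C virus in human cells. In humans and mice the poly(A) polymerase GLD2 (gene TENT2) is known to add an A to the 3′ end of miR-122-5p. The bases that choose its targets, the seed, lie at its 5′ end.

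The authors' tables placed the pig hairpin on chromosome 1 from 179916327 to 179916422, minus strand, in Sscrofa10.2 coordinates. They gave it 96 nt, a folding energy of -43.5 kcal/mol and 32 base pairs in the stem. In the RefSeq gene table of a later pig assembly (Sscrofa11.1, used for names and order only) MIR122 was on chromosome 1 as well. It overlapped 0 other genes and lay between the protein-coding genes ALPK2 and NEDD4L. The hairpin is printed first, 5′ to 3′, with both arms in capitals as far as the reads cover them. The known mature strands follow with the seed, bases 2 to 8 counted from the 5′ end, in capitals.
Pig miR-122 hairpin: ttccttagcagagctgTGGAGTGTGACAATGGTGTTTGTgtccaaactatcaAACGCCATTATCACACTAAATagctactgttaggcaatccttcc
Known miR-122-5p: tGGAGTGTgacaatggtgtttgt
Known miR-122-3p: aACGCCATtatcacactaaata
The known 5p strand, 23 nt, lies from 179916384 to 179916406. The known 3p strand, 22 nt and named after the human one, lies from 179916349 to 179916370. The table of each library gives a representative read per arm, which the file headers define as the read with the highest mapped score. The representative reads of the 5p arm are shown next because they differed in every library. Capitals mark the bases after position 21.
5p read at E90: tggagtgtgacaatggtgtttGA
5p read at P30d: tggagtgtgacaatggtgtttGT
5p read at P7y: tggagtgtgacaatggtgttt
3p read in all 3 libraries: aacgccattatcacactaaat
The 3 reads of the 5p arm began at the same base and therefore carried the same seed. At P30d the read was the known strand. At E90 it had the same length, 23 nt, and differed by T23A, counted from 1 at the 5′ end. At P7y it was 21 nt long and lacked the last 2 bases. The 3p read was the same in every library, 21 nt long, and lacked the last base of the known strand.

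The reads that the authors listed for named or predicted hairpins came to 9406525, 3775157 and 9935073 at E90, P30d and P7y. Of these, 98.3%, 96.0% and 99.9% were in named hairpins. Reads outside listed hairpins are not in these totals, so the shares are not shares of all sequenced reads. Levels are counts per 1000000 named reads (CPM), and a count of 3 reads corresponds to 0.325, 0.828 and 0.302 CPM. The comparisons used the 323 mature miRNAs whose mean level reached 10 CPM. The calls higher and lower were given where 2 libraries differed at least 2-fold and the interval of the log2 ratio lay off 0. The median log2 ratio of CPM over these miRNAs was -0.11 for P30d over E90, -1.37 for P7y over P30d and -1.07 for P7y over E90. TMM scaling moved it by 0.02, 0.99 and 1.005, so ratios that involve P7y are also given relative to the median.

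miR-122-5p was the most read miRNA of the fetal and the young liver and stood lower in the old one, while miR-122-3p was high in the young liver alone. The reads of the 5p arm numbered 1183335, 774602 and 375675 at E90, P30d and P7y. These were 128017, 213802 and 37870 CPM. The order of the levels was P30d, E90, P7y, and the counting intervals of the shares were apart: 21.3% to 21.4% of named reads at P30d, 12.8% at both bounds at E90, and 3.78% to 3.799% at P7y. By abundance the 5p arm ranked 1 at E90 and at P30d, but 8 at P7y. The 3p arm had 621, 4518 and 216 reads at these stages, or 67.2, 1247 and 21.8 CPM. The order was the same as for the 5p arm, but the span was wider. Its ranks were 202, 59 and 204. The 3p arm was therefore far above the limit of 3 counts in every library. In whole liver, fewer hepatocytes and less miR-122 per hepatocyte cannot be told apart.

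**Figure D1:**
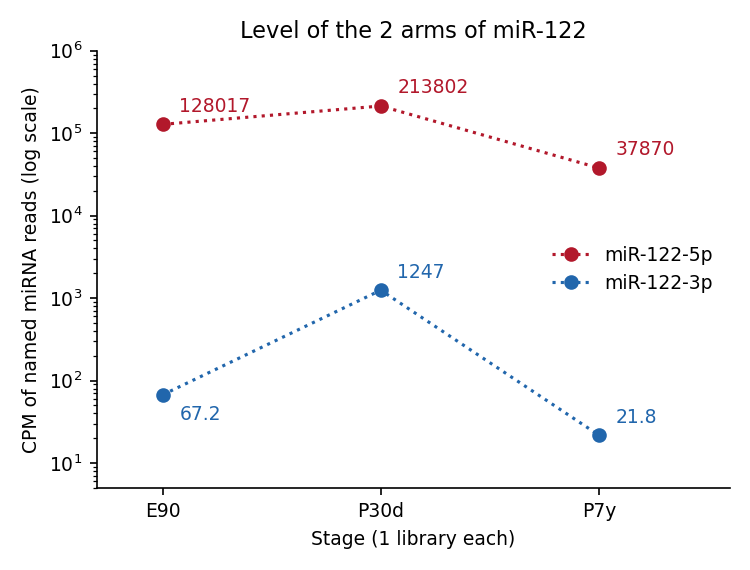
Level of both arms of miR-122 by stage, in CPM of named miRNA reads on a log scale, 1 library per point. The 5p arm stands at 128017, 213802 and 37870 CPM and the 3p arm at 67.2, 1247 and 21.8 CPM at E90, P30d and P7y, and both are highest at P30d.

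The comparison of P30d with E90 asks how the miRNA differs between the young and the fetal liver. miR-122-5p stood at 213802 CPM at P30d, against 128017 CPM at E90, a log2 ratio of 0.74 with both interval bounds at 0.74, or 1.67-fold. It was thus not called, while 33.4% of the 323 miRNAs were called higher and 35.3% lower. Among reads without a mismatch the 5p arm stood at 192339 CPM at P30d, against 83909 CPM at E90, and with the total restricted in the same way its log2 ratio was 1.12, past the 2-fold size. miR-122-3p stood at 1247 CPM at P30d, against 67.2 CPM at E90. Its log2 ratio of 4.21 (interval 4.09 to 4.34), 18.6-fold, was called higher and ranked 18 from the highest of 323.

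In the comparison of P7y with P30d, the old with the young liver, both arms were called lower, as were 56.0% of all tested miRNAs, with 13.3% called higher. With TMM scaling the split was 36.2% lower and 26.6% higher. miR-122-5p stood at 37870 CPM at P7y, against 213802 CPM at P30d, a log2 ratio of -2.50 (interval -2.50 to -2.49). Relative to the median it was -1.13, and under TMM it was -1.51. miR-122-3p stood at 21.8 CPM at P7y, against 1247 CPM at P30d, a log2 ratio of -5.84 (interval -6.04 to -5.64). This was -4.47 relative to the median and -4.85 under TMM, and it ranked 9 from the lowest of 323.

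In the comparison of P7y with E90, the old with the fetal liver, both arms were called lower under CPM, as were 50.8% of all tested miRNAs, with 12.1% called higher. With TMM the split was 33.4% lower and 27.6% higher, and neither arm was called. miR-122-5p stood at 37870 CPM at P7y, against 128017 CPM at E90, a log2 ratio of -1.76 (interval -1.76 to -1.75). It was -0.68 relative to the median and -0.75 under TMM. miR-122-3p stood at 21.8 CPM at P7y, against 67.2 CPM at E90, a log2 ratio of -1.63 (interval -1.86 to -1.40), which was -0.55 relative to the median and -0.62 under TMM. Each pair of these comparisons shares a library, so they are not independent of each other.

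The balance of the arms needs no scaling between libraries. Per 3p read there were 1906 reads of the 5p strand at E90 and 171 at P30d, with 1739 at P7y. Of the hairpin's reads the 3p strand thus held 0.0525% at E90 (interval 0.0484% to 0.0567%). At P30d it held 0.580% (0.563% to 0.597%), and at P7y 0.0575% (0.0501% to 0.0657%). The intervals of E90 and P7y overlapped, and that of P30d lay far above both. In every library the 3p share was below the median of the hairpins whose 5p arm led, which was 1.24%, 1.92% and 1.57% (108, 103 and 103 hairpins). On a log2 scale, after 0.5 was added to both arms, the ratio of 5p to 3p was 10.89, 7.42 and 10.76. Among the 181 hairpins that had both arms named and 50 reads or more per library, miR-122 ranked 17, 63 and 31 by how far 1 arm led.

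**Figure D2:**
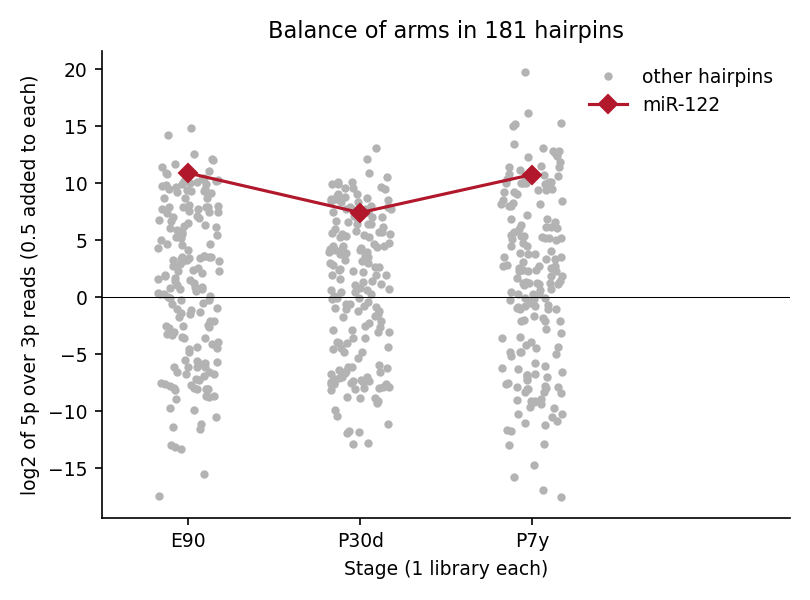
Balance of arms of 181 hairpins by stage, as log2 of the 5p reads over the 3p reads (0.5 added to both), 1 point per hairpin and library, with miR-122 as diamonds. Its values are 10.89, 7.42 and 10.76 at E90, P30d and P7y.

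Between P30d and E90 the log2 balance of miR-122 differed by -3.47 (interval -3.60 to -3.35). The median difference of the 181 hairpins was -0.72, and 38.1% of them were called for a balance that lay lower toward 5p at P30d and 22.1% for a higher one. miR-122 ranked 22 from the lowest. Next to it in that rank were miR-192 at -3.52, miR-7 at -3.53 and miR-181d at -3.55 on one side. On the other side were miR-503 at -3.44, miR-133a at -3.41 and miR-186 at -3.39. Several of these rest on few reads of an arm: miR-181d had 1 read of its 3p arm at P30d, against 0 at E90, and miR-503 had 1 against 13. miR-133a, read mainly from its 3p arm, had 1 read of its 5p arm at P30d, against 14 at E90. For it the same sign means that the major arm stood higher against the minor one. miR-192, also a miRNA of hepatocytes, had 993 reads of its 3p arm at P30d, against 221 at E90, with the 5p arm at 109310 CPM at P30d, against 109466 CPM at E90.

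Between P7y and P30d the balance of miR-122 differed by 3.34 (interval 3.15 to 3.55), against a median of 0.21. Here 34.3% of the hairpins were called for a balance higher toward 5p and 29.8% for a lower one, and miR-122 ranked 31 from the highest. The hairpins next to it were miR-222 at 3.24, miR-215 at 3.07 and miR-130a at 2.89 below it, and miR-195 at 3.40, miR-144 at 3.56 and miR-200a at 3.67 above it. In both of these libraries miR-130a, miR-222, miR-144 and miR-200a were read mainly from the 3p arm. For them the same sign means that the major arm stood lower against the minor one. miR-215 and miR-195 had between 0 and 4 reads of their 3p arm in these libraries. The 5p arm of miR-130a had 0 reads at P7y, against 2 at P30d, and that of miR-200a had 10 against 1.

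Between P7y and E90 the balance differed by -0.13 (interval -0.36 to 0.10), so that its interval held 0. The median was -0.31, with 28.7% of the hairpins called lower toward 5p and 19.3% higher. The hairpins next in rank were miR-20a at -0.17, miR-450a and miR-27b at -0.21, miR-532 at -0.12, miR-4454 at -0.02 and miR-4332 at -0.01. The 3p arm of miR-450a had 0 reads at P7y, against 8.5 at E90, so its value rests on the 0.5 added. In both libraries miR-27b and miR-4332 were read mainly from the 3p arm, so for them the same sign means that the major arm stood higher. Counted as the major over the minor arm, a view added after the values were seen, the medians of the 181 hairpins were -0.49 for P30d over E90, 0.65 for P7y over P30d and 0.20 for P7y over E90. In this count the minor arm was called higher at P30d than at E90 in 37.6% of hairpins and the major arm in 22.7%, so the direction of miR-122 was the more frequent one.

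The representative 5p reads differed between the stages in their 3′ ends, and only that of E90 ended in a base not encoded in the hairpin. The read that ends in A, with T23A, had 366069 copies at E90, or 39602 CPM and 30.9% of all 5p reads (interval 30.9% to 31.0%). It made up 89.8% of the 407717 reads with a mismatch in that arm. The other mismatched reads came to 41648, or 3.52%. At P30d the representative read was the known strand, with 288421 copies, 79608 CPM and 37.2% of the arm (37.1% to 37.3%). At P7y it was the strand 2 bases shorter, with 123896 copies, 12489 CPM and 33.0% (32.8% to 33.1%).

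The tables give 1 read sequence per row, so the copies of the A-ending read at P30d and P7y were not listed, but they cannot exceed the reads with a mismatch. At P30d that bound was 77759 reads, 10.04% of the arm or 21463 CPM. At P7y it was 94409 reads, 25.1% of the arm or 9517 CPM. The A-ending read was thus more abundant at E90 than these bounds allow in either of the later libraries, both as a share of the arm and in CPM. Reads of the 5p arm with no mismatch stood at 83909, 192339 and 28353 CPM at E90, P30d and P7y, and those with a mismatch at 44108, 21463 and 9517 CPM. At P30d the reads without a mismatch were higher than at E90 while those with one were lower.

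**Figure D3:**
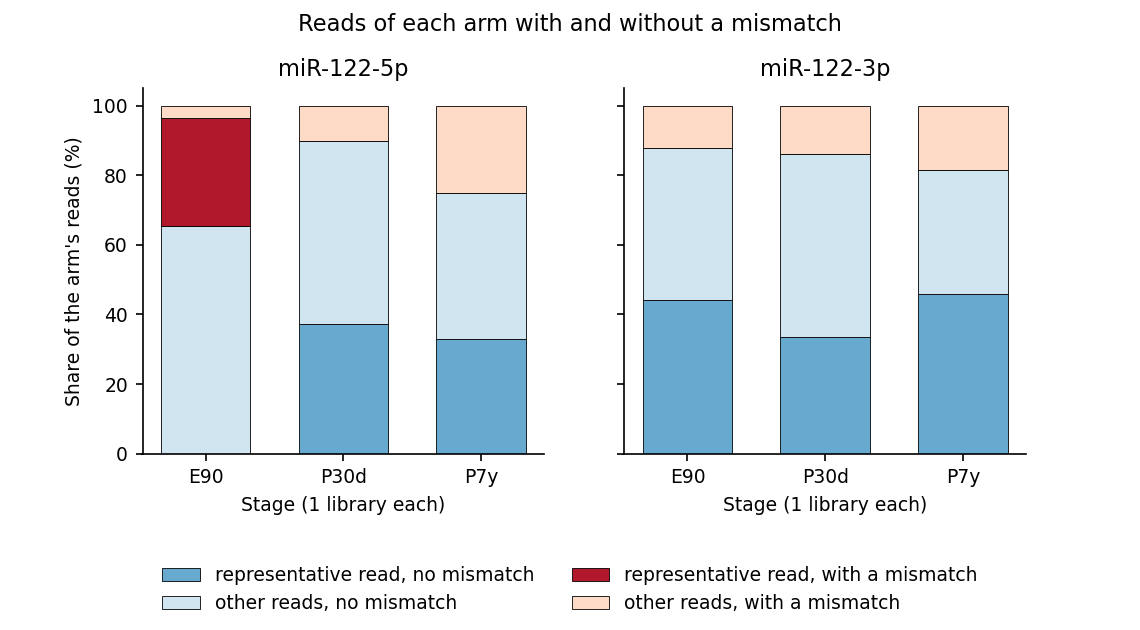
Make-up of the reads of each arm by stage as shares of the arm's reads in %, split into the representative read and the other reads, each with or without a mismatch. The dark red block at E90 is the read with T23A, 30.9% of the 5p reads, and at P30d and P7y the representative 5p read has no mismatch.

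Reads with a mismatch made up 34.5% of the 5p arm at E90 (interval 34.4% to 34.5%). Their share was 10.04% at P30d (9.97% to 10.1%), and 25.1% in the P7y library (24.99% to 25.3%). Over the 205 miRNAs with 100 reads or more in every library the median was 12.2%, 14.4% and 16.1%, and the upper quartile 26.5%, 30.2% and 32.7%. Some of the 205, such as let-7b-5p at 99.9% in each library, had a mismatch in nearly every read. The ranks of miR-122-5p from the highest were 37, 128 and 69. It lay above the upper quartile at E90, below the median at P30d, and between them at P7y. The 3p share was 12.2% (9.76% to 15.1%), 14.0% (12.99% to 15.03%) and 18.5% (13.6% to 24.4%), with 76, 632 and 40 reads behind it. Its counting intervals overlapped between neighbouring stages, and its ranks were 103, 106 and 88.

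**Figure D4:**
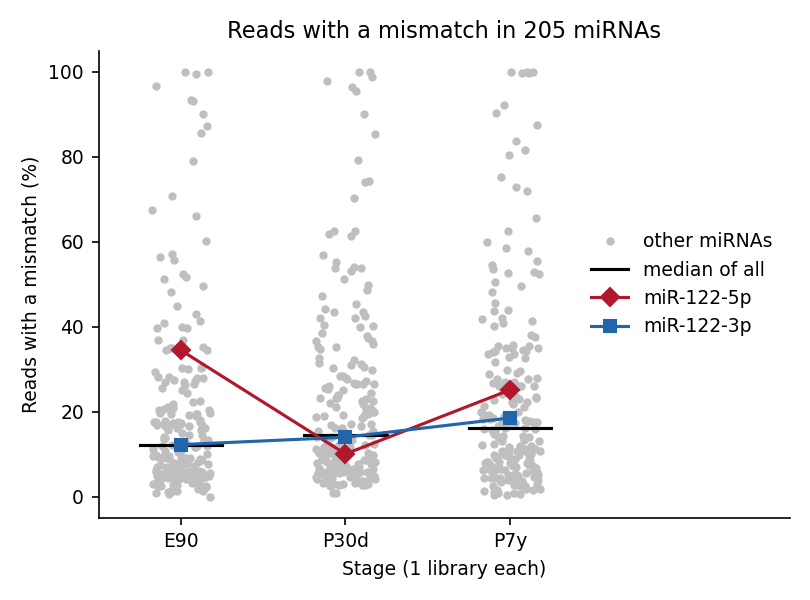
Share of reads with a mismatch in 205 miRNAs by stage in %, 1 grey point per miRNA and library, with the median of all as a black line. miR-122-5p (red) stands at 34.5%, 10.04% and 25.1% and miR-122-3p (blue) at 12.2%, 14.0% and 18.5% at E90, P30d and P7y.

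A representative read with a last base A that is not in the hairpin was rare in every library, with 5, 2 and 6 of 205 miRNAs at E90, P30d and P7y. A last base T of this kind was found in 3, 11 and 10. Of the 5 at E90, miR-122-5p had 366069 copies, and the other 4 were miR-1285-3p with 650, miR-99a-3p with 154, miR-218-5p with 149 and miR-194-3p with 45. At P7y the largest such reads were those of miR-125b-5p, with 22951 copies, and of miR-126-5p, with 12677. Such ends therefore were not confined to E90. Across the 3 libraries 113 of 205 miRNAs (55.1%) kept 1 representative sequence, miR-122-3p among them, 67 (32.7%) had 2, and 25 (12.2%), miR-122-5p among them, had a different one in each.

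The length of the representative read at P7y was shorter than at P30d in 37 of the 205 miRNAs, the same in 132 and longer in 36. It was shorter by 2 bases or more, as for miR-122-5p, in 19. The representative read held 44.1%, 33.5% and 45.8% of the 3p arm at E90, P30d and P7y, with 274, 1514 and 99 copies. The median of all 205 miRNAs was 50.1%, 47.9% and 46.4%. Copies are whole while multiply mapped reads are shared out, so this share can exceed the whole, as at 189% for miR-4334-3p at E90. In both arms miR-122 was below the median in every library, with 30.9%, 37.2% and 33.0% in its 5p arm. The interval of the 3p share at P7y, 39.1% to 52.7%, held the median.

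The authors also deposited base scores, which are sums over the bases of reads and of the size of a sequencing quality per base. Per base of the representative 5p read they were 38.9, 37.2 and 38.9 for E90, P30d and P7y. Outside the mapped bases they came to 38.5, 35.2 and 38.3 per 5p read with a mismatch, near the score of 1 base. Divided by the score per base, the mean 5p read without a mismatch was worth 21.5, 21.9 and 21.7 bases, and the mean read with one 22.8, 22.4 and 22.7. In this estimate the mismatched reads were the longer ones in each library. For the 5p arm these scores were lowest at P30d, the library with the fewest listed reads. For the 3p arm the score per base of the representative read was also lowest there, at 37.6, against 38.9 at E90 and 38.8 at P7y. Outside the mapped bases its score per mismatched read was instead highest there, at 37.6, against 36.3 and 37.4. Scores of other miRNAs were not compared. The part of scores and depth in the lower share of 5p mismatches at P30d was not tested.

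The other 6 rows of miR-122, in 2 groups of hairpins that the authors list apart, were of the 5p arm. The authors named 5 of them after other mammals and 1, at P7y, after pig. Their reads numbered 34, 156 and 30 by stage, or 0.00287%, 0.0201% and 0.00799% of the arm, and every read had a mismatch. Their representative reads had extra bases at the 5′ end. The one with the most copies, 28 at P30d, is printed with the bases before the known start in capitals.
5p read with a longer 5′ end at P30d: GATCtggagtgtgacaatggtgttt
The strand opposite to miR-122 encodes the hairpin named miR-3591, from 179916342 to 179916414 on the plus strand. Its reads numbered 2 at E90 and 1 at P30d, with 0 at P7y, at or under the limit of 3 counts, so its level was not measurable at this depth.

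By profile, the miRNAs most like miR-122-5p among 176 whose mean reached 100 CPM were miR-499-5p, miR-331-3p, miR-505-3p, miR-181b-5p and miR-200a-3p. The measure was the Euclidean distance of centred log2 CPM over the 3 libraries, which was 0.22, 0.23, 0.29, 0.36 and 0.41. All 5 were far less abundant than miR-122-5p. miR-499-5p, for example, stood at 155, 319 and 51.5 CPM at E90, P30d and P7y. For miR-122-3p the nearest were miR-2887-5p at a distance of 0.24, miR-130a-3p at 0.69, miR-1307-5p at 0.76, miR-5105-5p at 1.19 and miR-374a-5p at 1.31. miR-130a-3p stood at 80.4, 2698 and 26.6 CPM. The representative reads of 2 of these names held a small part of their reads. For miR-2887-5p, 26 to 28 nt long, it was 3.21%, 13.9% and 7.14% at E90, P30d and P7y, with 140 reads in all at P7y. For miR-5105-5p it was 12.6%, 9.87% and 27.2%. Likeness over 3 libraries describes only a similar order and size of the differences between stages.

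A list of 12 hepatocyte miRNA names gave the setting of miR-122. Which cells of the liver their reads came from was not tested. Together the 12 names held 40.8%, 39.1% and 42.5% of named reads at E90, P30d and P7y. Without miR-122 they held 28.02%, 17.6% and 38.7%, lowest at the stage at which miR-122 was highest. Shares of 1 library sum to a fixed total, so these shares are not independent of that of miR-122. The largest of the others were miR-192-5p with 109466, 109310 and 154836 CPM, miR-148a-3p with 75920, 41821 and 95666 CPM, and miR-101-3p with 65392, 5493 and 119966 CPM. None of these had its highest level at P30d, unlike miR-122-5p, and miR-194a-5p, at 27936, 14577 and 15262 CPM, did not either.

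Among the less abundant members, several were highest at P30d, as both arms of miR-122 were. miR-802-5p, a miRNA of liver and pancreas, stood at 2.27, 685 and 63.5 CPM. miR-193b-3p stood at 108, 1221 and 239 CPM, miR-365-3p, from the same gene cluster in mammals, at 202, 583 and 166 CPM, and miR-378-3p at 265, 688 and 362 CPM. miR-192-3p, the minor arm of the miR-192 hairpin, stood at 23.9, 274 and 18.04 CPM, and miR-148a-5p, the minor arm of miR-148a, at 421, 508 and 281 CPM. miR-215-5p, which shares its seed with miR-192-5p, stood at 323, 325 and 331 CPM. Of its reads 85.6%, 79.2% and 80.4% had a mismatch.

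**Figure D5:**
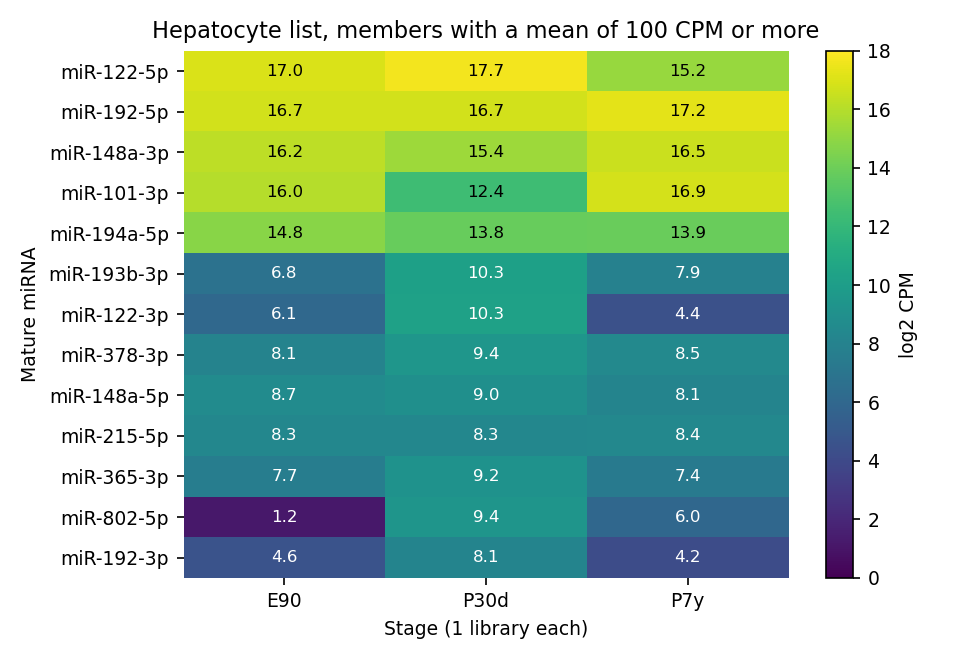
Level of the members of the hepatocyte list whose mean reached 100 CPM, by stage, as log2 CPM, with 1 row per mature miRNA from the highest to the lowest mean. Both arms of miR-122 and the less abundant members from miR-193b-3p down, except miR-215-5p, are highest at P30d, whereas miR-192-5p, miR-148a-3p and miR-101-3p are highest at P7y.

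Of 38 arms of the hepatocyte list with a row, 19 passed the filter of 10 CPM. Both arms of miR-122 are among the 19 and count in every number and median of the list below. The filter used the mean over all libraries, and miR-33a-5p, at 9.09, 55.5 and 1.92 CPM, reached 10 CPM at P30d alone. As the list was chosen with earlier results of these data known, its counts are a description and not independent evidence on miR-122. At P30d against E90, 10 of the 19 were called higher and 2 lower, where 33.4% of all 323 miRNAs were called higher and 35.3% lower. The median log2 ratio of the list was 1.37 (all tested miRNAs: -0.11). At P7y against P30d, 3 were higher and 11 lower, shares near those of all 323 miRNAs (13.3% higher, 56.0% lower), with a median of -1.82 (all: -1.37). Under TMM 6 were higher and 9 lower (all: 26.6% and 36.2%). At P7y against E90, 3 were higher and 4 lower (all: 12.1% and 50.8%), with a median of 0.04 (all: -1.07). Under TMM 10 were higher and 1 lower (all: 27.6% and 33.4%). miR-122-5p lay below the list's median in the first comparison, at 0.74, in the second, at -2.50, and in the third, at -1.76.

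Lists of miRNAs of other cells were summed in the same way. The 3 erythroid names (miR-144, miR-451, miR-486) held 0.724%, 0.303% and 0.182% of named reads at E90, P30d and P7y, and each name had its highest level at E90. The 5 leukocyte names (miR-142, miR-150, miR-155, miR-223, miR-146a) held 0.104%, 0.460% and 0.112%. Of these names 4 were highest at P30d, as miR-122 was, and miR-142 made up most of the sum with 570, 3145 and 714 CPM. miR-223, at 313, 51.3 and 84.6 CPM, was lowest there. The 5 mesenchymal names (miR-143, miR-145, miR-199a, miR-214, miR-10b) held 6.04%, 6.77% and 11.6%. miR-143, with 51253, 17820 and 102750 CPM, made up most of the sum at E90 and P7y, and 3 of the names were highest at P7y, where miR-122 was lowest. miR-199a, at 6361, 46325 and 5595 CPM, and miR-214, at 104, 529 and 187 CPM, were highest at P30d. Endothelial miR-126 held 1.33%, 1.19% and 1.36%. The 6 biliary and epithelial names held 0.205%, 0.0464% and 0.0930%. Of them miR-375, at 1289, 104 and 706 CPM, miR-200b and miR-429 were highest at E90. miR-200a, at 87.3, 187 and 38.6 CPM, miR-200c and miR-141 were highest at P30d. The 3 names of striated muscle held 0.00166%, 0.00423% and 0.00303%. Of all these names only miR-206, of skeletal muscle, was at 0, at P30d and P7y. The part of other cell types in the levels of miR-122 was not tested.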

How the data were processed

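Per the labels' protocols, small RNA of 14 to 40 nt was taken from total RNA (integrity number over 6) and sequenced after adaptor ligation and PCR. Per the file headers, the authors aligned reads with miRBase hairpins (those of pig and of further mammals) and the genome, and deposited 1 table per library with a row per arm. In the deposited tables, reads per arm are expected counts: a multiply mapped read is shared out among its hairpins. So are the deposited reads with no mismatch and those with one, as estimated counts. The deposited copies of the representative read and the deposited reads per hairpin are counts. The deposited base scores are sums over reads, per the file headers. The genome build is Sscrofa10.2, per the submitters' processing notes. Not given in the sources used here are the aligner, the trimming, the miRBase release and the limit on mismatches.

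Expected counts were summed per mature miRNA over named hairpins, and rounded to whole numbers for intervals. Of 1007 names, 22 whose representative read was the same as another's, 18 nt or longer and over 50% of the reads of each, were merged, which left 985 and touched no row of miR-122. CPM were taken per 1000000 named reads. Ratios have exact conditional binomial 95% intervals, arm balances exact conditional intervals of the odds ratio, and shares exact Clopper-Pearson intervals. No test between stages was possible with 1 library each. The intervals and calls were tested on simulated Poisson counts, which hold counting error only and no spread between pigs or libraries. Other miRNAs were named by nearness of profile (5 per arm, with 0.5 reads added before the log), by nearness in rank of arm balance (3 on either side), and by a mean of 100 CPM in the hepatocyte list. Members of miR-122 and all lists were chosen with earlier results of these data known. The alternatives were TMM (edgeR 4.0.16) and median-of-ratios factors (DESeq2 1.42.0), which were used for scaling only, other totals, other filters, reads without a mismatch, representative reads only, 1 added to each arm, and at least 200 reads per hairpin. R 4.3.3 and Python 3.11.15 were used, with SciPy 1.17.1, NumPy 2.4.6, pandas 2.3.3 and matplotlib 3.10.9.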

Additional observations from a re-analysis of the deposited data

Results flagged for a closer look

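A predicted hairpin elsewhere in the genome, which the authors' tables list without a known miRNA and which entered no comparison, had reads that begin with the first 16 bases of miR-122-5p. It had 9, 4 and 8 reads at E90, P30d and P7y, each above the limit of 3 counts, and every read had a mismatch to that hairpin.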

How the results depend on the processing

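Each value rests on 1 library, so no library could be left out and no spread between pigs is known. No paired analysis was possible because the labels give 1 library per stage and no replicate numbers. Of 75 alternative values 58 kept direction, call or size, and 0 reversed a called direction. The numbers of miRNAs called entered this count as totals, which does not show a change in their split. Under TMM the split for P7y over P30d went from 43 higher and 181 lower to 86 and 117. For P7y over E90 it went from 39 and 164 to 89 and 108. For P7y over E90 the ratios lost the 2-fold size under TMM (-0.75 for miR-122-5p, -0.62 for miR-122-3p) and under DESeq2 factors (-0.66 and -0.53), as both scalings raise all ratios of that pair by about the same amount. For P30d over E90 miR-122-5p passed that size when only reads without a mismatch were counted (1.12), which leaves out the A-ending read at E90. The uncalled difference in arm balance of P7y over E90 was then 0.16 in place of -0.13. The numbers of miRNAs called, 222 for P30d over E90, 224 for P7y over P30d and 203 for P7y over E90, were 393, 406 and 432 with no filter and 117, 123 and 103 with a mean of 100 CPM, since more or fewer miRNAs were tested. Without merging of names, an alternative chosen after seeing the data, they were 228, 229 and 209. Set over the reads without a mismatch, the copies of the representative read were 47.2%, 41.4% and 44.0% for the 5p arm at E90, P30d and P7y, where the E90 read itself has a mismatch, and 50.3%, 38.96% and 56.3% for the 3p arm, since the base is smaller. Depth limits the 3p arm most, with 216 reads at P7y.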
